A study of Mus musculus with 12 samples.

Results

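Glypicans and syndecans are the cell-surface core proteins that carry heparan sulfate. The genes described here are the 6 glypicans (Gpc1 to Gpc6) and the 4 syndecans (Sdc1 to Sdc4), taken by symbol from the annotation of each Ensembl identifier. They are 10 of the 55359 genes counted, and all 10 passed the filter on low counts. The RNA came from newborn mice (postnatal day 0), from pieces of the ventroposterior medial nucleus, the thalamic station of facial touch. Control pups gave 4 libraries of the territory of upper lip input (Ctrl ALBSF) and 4 of the territory of whisker pad input (Ctrl PMBSF). Pups under the condition named embWPC gave 4 libraries of the upper lip territory (embWPC ALBSF). What embWPC stands for is not written out in the labels, and the strain and sex of the pups are not given in the sources used here. Each library was a pool of 5 brains, so the spread is between pools and not between single pups.

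Glypicans are tied to the outer face of the membrane by a lipid anchor and carry their sugar chains close to the cell surface. Syndecans span the membrane, carry their chains further out and have a short cytoplasmic tail. The chains bind growth factors, morphogens and guidance cues such as FGFs, Hedgehog, Wnts, pleiotrophin and Slits, and the pattern of sulfate groups on a chain affects which ligands it binds. In the developing brain these proteins are known for roles in axon guidance, neurite growth and synapse formation. Gpc3 and Gpc5 form one subfamily by sequence, and Gpc1, Gpc2, Gpc4 and Gpc6 the other.

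Library totals ran from 28457046 to 34512840 counts, and mitochondrial genes took 1.72 to 3.46% of them. Values within a gene are CPM, here each count over its library's total and TMM factor, a correction for differences in RNA composition. All 10 thalamic relay neuron markers were detected, with a summed level of 2110 to 2750 CPM per library. The listed markers of GABAergic neurons, which are scarce in this nucleus in mice, summed to 6.41 to 64.8 CPM, and 9 of the 11 were tested. Values of some other marker lists are given with Sdc3 and Gpc3 only. Other members also moved with lists over the 12 libraries, such as Sdc2 with microglia and macrophage (r = 0.769) and oligodendrocyte lineage markers (0.744). Sdc2 also had an r of 0.663 with cycling cell and 0.581 with GABAergic neuron markers.

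Among the control territories, Gpc5 was the 1 member called in the edgeR fit with group as the only term, at 2.64 times its level in the upper lip territory. Sdc3, the most abundant member, stood just short of the threshold in the other direction in that fit. It was called as well when the paired library numbers were a block (edgeR adjusted p 0.0161). The block called 5.04% of all genes, against 1.62% with group as the only term. Gpc5 (ENSMUSG00000022112) lies on chromosome 14 at 115329647 to 116762591 on the plus strand of GRCm39, a span of 1433 kb. Gpc6 follows it at 117162727 to 118216940 on the same strand, with 400.1 kb between them. Sdc3 (ENSMUSG00000025743) lies on chromosome 4 at 130519826 to 130556217, plus strand. The 250 bases before the annotated start of these genes are shown because Gpc5 and Sdc3 had the smallest p values of the members between the control territories. They were read from the GRCm39 sequence, 5′ to 3′ on the gene's strand, with GC boxes (GGGCGG, or CCGCCC on the other strand) in capitals.
Gpc5, chr14:115329397-115329646, plus strand: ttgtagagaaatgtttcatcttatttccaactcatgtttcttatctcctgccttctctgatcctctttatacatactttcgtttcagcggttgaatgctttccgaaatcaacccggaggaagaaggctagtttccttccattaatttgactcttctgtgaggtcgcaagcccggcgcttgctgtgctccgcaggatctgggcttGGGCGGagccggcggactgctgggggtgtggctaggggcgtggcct
Sdc3, chr4:130519576-130519825, plus strand: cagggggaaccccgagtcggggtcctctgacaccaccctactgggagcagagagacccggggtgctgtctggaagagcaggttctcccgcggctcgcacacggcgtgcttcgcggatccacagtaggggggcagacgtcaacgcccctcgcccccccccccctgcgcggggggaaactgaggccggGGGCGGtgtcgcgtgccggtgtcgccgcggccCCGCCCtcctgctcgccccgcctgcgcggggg
The Sdc3 window had 74.8% G and C and 28 CpG, more CpG than 96.3% of the same windows of 21770 protein-coding genes. The Gpc5 window had 51.2% G and C, equal to the median window, and 12 CpG against a median of 6. GC boxes numbered 2 for Sdc3 and 1 for Gpc5, and 29.9% of all windows held at least 1. The letters TATAAA, searched on both strands, occurred once in the window of Gpc5 and not in that of Sdc3, and 12.5% of all windows held them. These are matches of letters only.

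Levels can be compared between genes only per length, so CPM were divided by the kilobases of annotated exon of each gene. Over the 12 libraries Sdc3 led with 43.1 ± 5.55 CPM per kb (SD, n = 12), and its lowest library was above the highest library of every other member. Gpc1 followed with 12.1 ± 1.05 CPM per kb and Sdc1 with 9.39 ± 0.995, and the ranges of these genes overlapped. Sdc2 came next with 2.47 ± 0.365 CPM per kb, and its highest library was below the lowest of Sdc1.

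The other 6 members were low, and each overlapped its neighbour in the order. Per kb, Gpc3 had 1.35 ± 0.993 CPM, Gpc5 1.153 ± 0.487, Gpc2 0.663 ± 0.202, Gpc6 0.506 ± 0.0743, Sdc4 0.414 ± 0.108 and Gpc4 0.367 ± 0.0638. The order of these low members was not fixed by the data, since dividing by the longest transcript instead put Gpc5 above Gpc3 and Gpc6 above Gpc2. Within their families, Gpc1 made up 80.2 to 89.3% of the summed glypican CPM of a library and Sdc3 83.0 to 90.6% of the summed syndecan CPM. Per kb, which is the scale for comparing genes, the shares were 62.7 to 81.8% for Gpc1 and 72.3 to 83.8% for Sdc3. Both families were thus led by 1 gene in each of the 12 libraries. Exons of Gpc1, Gpc5, Sdc1 and Sdc3 overlap antisense genes, and no more than 11 counts were assigned to such a partner in any library, but without a stated strand setting reads of such pairs cannot be told apart.

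The other members lie apart from each other on GRCm39, except for Gpc3 and Gpc4. Gpc1 spans 92759062 to 92792113 on chromosome 1 (plus strand), and Gpc2 spans 138271917 to 138278288 on chromosome 5 (minus strand). On chromosome X, Gpc4 spans 51139255 to 51254262 and Gpc3 spans 51361303 to 51703137, both on the minus strand. Sdc1 spans 8820854 to 8843725 on chromosome 12 and Sdc2 spans 32920699 to 33035213 on chromosome 15, both on the plus strand. Sdc4 spans 164266025 to 164285807 on chromosome 2 (minus strand). All 10 are annotated as protein-coding.

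**Figure D1:**
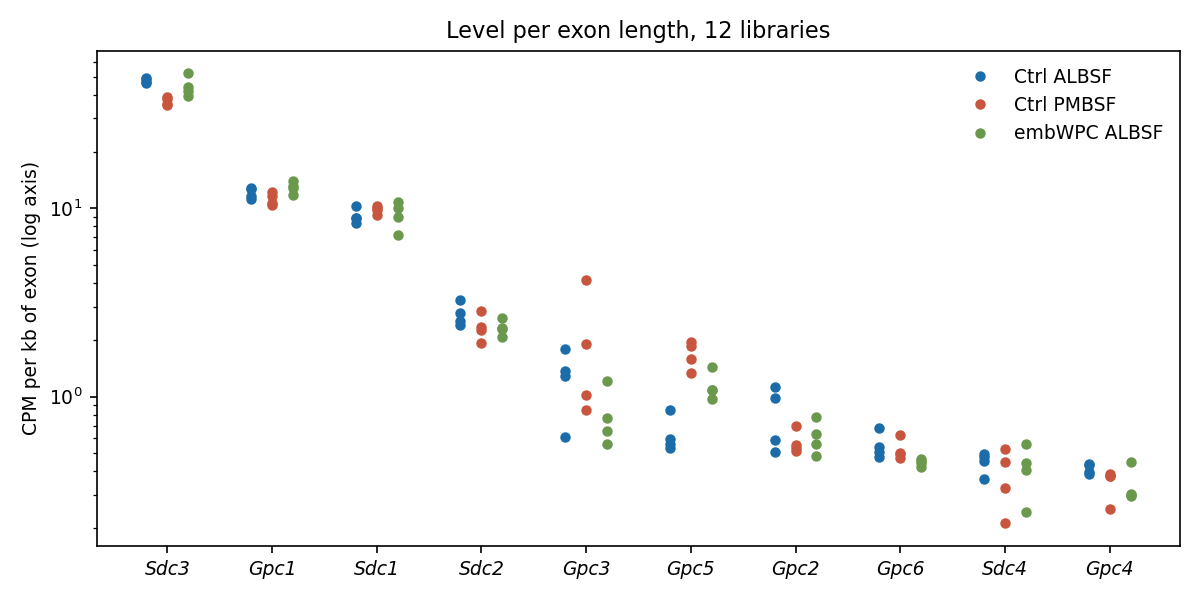
Level of each glypican and syndecan per exon length (vertical axis, TMM-scaled CPM per kb of exon, log scale) in each of the 12 libraries (points, coloured by group), with the genes along the horizontal axis in order of their mean. Sdc3 sits between 35.5 and 52.1 CPM per kb, above the highest library of Gpc1 at 13.9.

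The first comparison set the whisker pad territory of control pups against their upper lip territory, which addresses how these neighbours differ at birth. Gpc5, a glypican known to act on Hedgehog signalling, had 4.04, 2.81, 2.53 and 2.65 CPM in the 4 Ctrl ALBSF libraries. In the 4 Ctrl PMBSF libraries it had 8.81, 6.29, 9.24 and 7.47 CPM. Every whisker pad library was thus above every upper lip library, on counts of 205 to 330 against 73 to 122. The means were 3.01 ± 0.698 and 7.95 ± 1.34 CPM (SD, n = 4 each). Gpc5 rose by a log2 difference of 1.40 ± 0.18 (SE), with a 95% interval of 1.01 to 1.79 and an adjusted p of 0.00153 (edgeR quasi-likelihood test). It passed the test in each of 21 alternatives, at 1.33 to 1.59 and adjusted p of 1.851e-10 to 0.009998.

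Sdc3, a syndecan of neurons and a receptor for pleiotrophin, had 408.8, 416.3, 433.1 and 426.9 CPM in the Ctrl ALBSF libraries. It had 313.8, 338.1, 316.4 and 343.2 CPM in the Ctrl PMBSF libraries. The groups did not overlap, and the whisker pad libraries were the lower ones, with means of 327.9 ± 14.9 against 421.3 ± 10.8 CPM (SD, n = 4 each). The log2 difference was -0.36 ± 0.086 (SE; 95% interval -0.55 to -0.18), with an edgeR adjusted p of 0.053, so Sdc3 was not called. Since the numbers pair these 2 groups, the library number was also fitted as a block, which called 5.04% of all genes. With it the Sdc3 difference was -0.36 with an edgeR adjusted p of 0.0161. It was also called by DESeq2 (adjusted p 0.00243, against 3.01% of all genes) and by limma voom (0.0193, against 2.53%). With library totals alone in place of TMM the difference was -0.26 with an edgeR adjusted p of 0.264. Markers of the oligodendrocyte lineage moved the same way, with 7 of 9 below 0 and summed levels of 360 to 387 CPM in Ctrl PMBSF against 400 to 522 in Ctrl ALBSF. Other lists also leaned below 0 there, with endothelial and mural markers 10 of 12 (median -0.242), microglia and macrophage markers 9 of 10 (-0.237), erythroid markers 6 of 6 (-0.356) and astrocyte and radial glia markers 9 of 12 (-0.141). Over the 12 libraries Sdc3 had an r of 0.53 with oligodendrocyte lineage, 0.551 with endothelial and mural and 0.304 with erythroid markers. It had -0.00583 with microglia and macrophage and -0.116 with astrocyte and radial glia markers. Thalamic relay neuron markers were 6 of 10 below 0 between the control territories (median -0.0417), and Sdc3 had an r of 0.336 with them. Their summed level was 2110 to 2400 CPM in Ctrl PMBSF and 2250 to 2750 in Ctrl ALBSF. Meningeal fibroblast markers went the other way, with 11 of 12 above 0 (median 0.772) and an r of -0.413. The part of these lists in the Sdc3 difference was not tested. In bulk tissue, fewer cells of a type and less RNA per cell cannot be told apart.

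**Figure D2:**
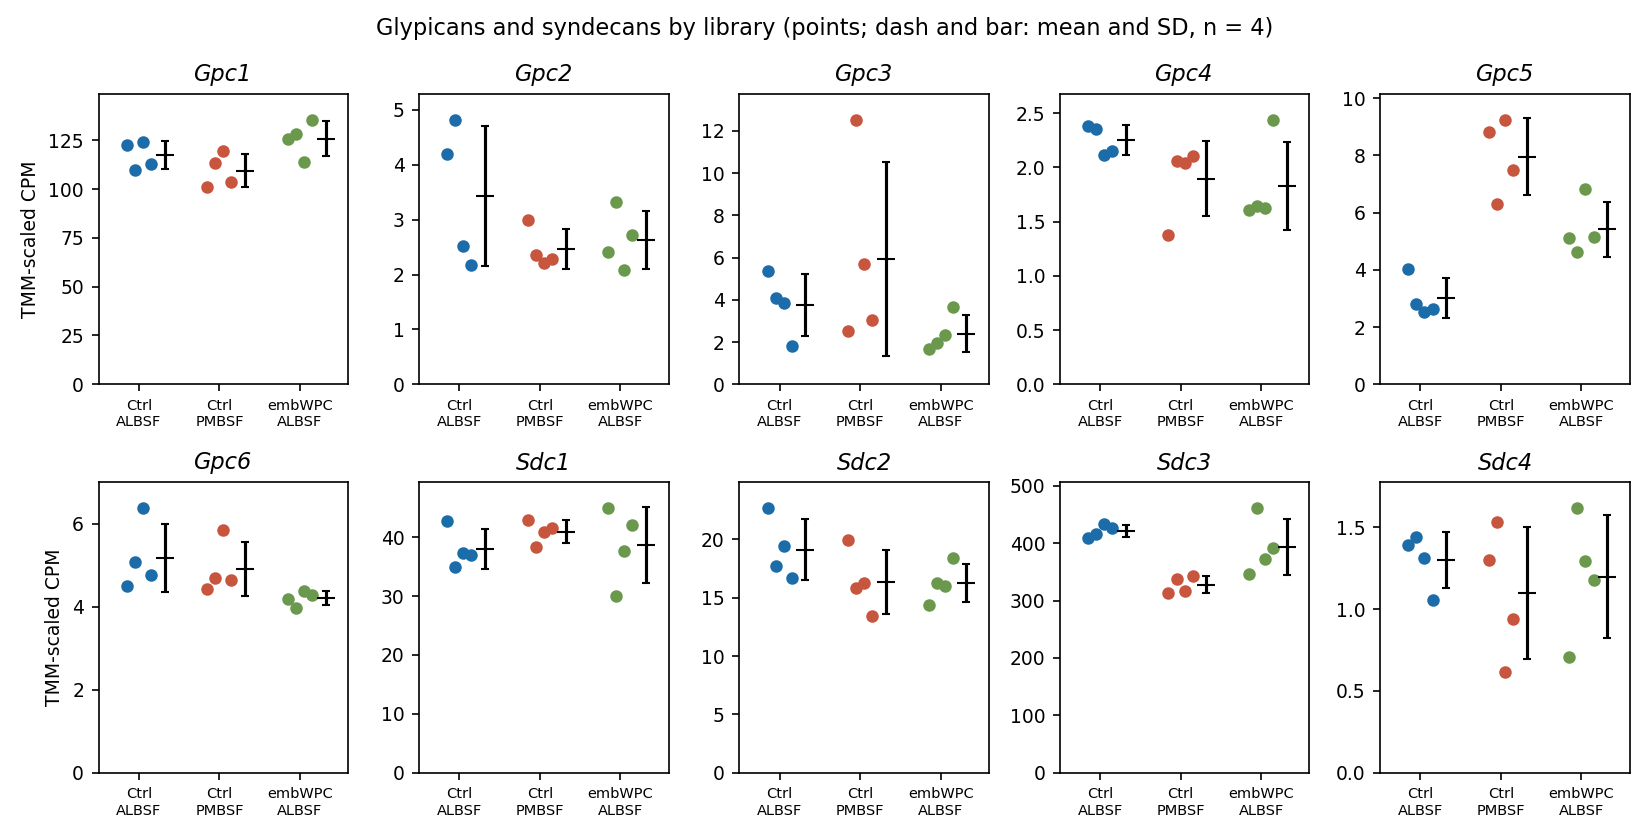
CPM of the 10 members after TMM scaling (vertical axes, each from 0) in the 4 libraries of each group, with the mean and SD beside the points. Gpc5 lies between 6.29 and 9.24 CPM in Ctrl PMBSF and at or below 4.04 in Ctrl ALBSF, and Sdc3 lies at or below 343.2 in Ctrl PMBSF and at or above 408.8 in Ctrl ALBSF.

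Read as a family, 1 of the 10 members was called in this comparison with group as the only term. That member, Gpc5, was higher in Ctrl PMBSF. Of all 17501 genes tested 1.62% were called, with 0.811% higher and 0.811% lower. With the library number as a block, 1 of 10 was called higher (Gpc5) and 1 lower (Sdc3), against 5.04% of all genes. Without the block, 2 of 10 had an edgeR unadjusted p under 0.05, against 11.8% of all genes. The libraries did not overlap for 3 of 10 (Gpc5, Sdc3 and Gpc4), against 8.28% of all genes. Gpc4, which astrocytes release to recruit AMPA receptors to synapses, had 2.11 to 2.38 CPM in Ctrl ALBSF and 1.38 to 2.10 in Ctrl PMBSF, and these ranges overlapped when libraries were scaled by their totals alone. Its log2 difference was -0.25 ± 0.20 (SE) with an edgeR adjusted p of 0.693. The median log2 difference was -0.163 over the members and 0.00431 over all genes, with 3 members above 0 and 7 below.

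The remaining glypicans did not pass the test between the control territories. Gpc1, a glypican of axons, had means of 117.3 ± 7.21 CPM in Ctrl ALBSF and 109.3 ± 8.50 in Ctrl PMBSF (SD, n = 4 each). Its log2 difference had a 95% interval of -0.27 to 0.063, the narrowest among the glypicans. Gpc2, a glypican of growing axons, had 4.20, 4.82, 2.53 and 2.18 CPM in Ctrl ALBSF and 2.21 to 3.00 in Ctrl PMBSF. Its upper lip libraries thus fell into 2 high and 2 low ones, and the log2 difference was -0.47 ± 0.24 (SE; edgeR adjusted p 0.483). Exons of Gpc2 overlap those of Gm43720 on the same strand by 2376 bases, so its counts are uncertain. Gpc6, which like Gpc4 is released by astrocytes, had a log2 difference of -0.075 ± 0.14 (SE), which was 0.035 with library totals alone. It therefore had no stable direction, although it is the chromosomal neighbour of Gpc5.

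Among the syndecans other than Sdc3, no difference passed the test. Sdc1, known from epithelia and plasma cells, had 34.96 to 42.8 CPM in Ctrl ALBSF and 38.3 to 43.0 in Ctrl PMBSF, and its 95% interval was -0.12 to 0.34 on the log2 scale. Sdc2, known for maturing dendritic spines, had 16.7 to 22.7 and 13.4 to 19.96 CPM, with a 95% interval of -0.49 to 0.048. Sdc4, a syndecan of focal adhesions, rested on 21 to 50 counts per library, and its 95% interval of -0.89 to 0.40 was the widest among the syndecans. That interval includes both 0 and the Sdc3 difference of -0.36.

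Gpc3, which restrains Hedgehog signalling, varied more between pools than any other member. It had 5.36, 4.08, 3.84 and 1.82 CPM in Ctrl ALBSF, 2.54, 12.5, 5.71 and 3.05 in Ctrl PMBSF, and 1.68, 1.97, 2.32 and 3.64 in embWPC ALBSF. The highest value was that of Ctrl PMBSF 2, which was also the library with the highest mean level of the 12 meningeal fibroblast markers, at 3.08 on the log2 CPM scale. That level was 1.05 to 1.45 across Ctrl ALBSF, 1.00 to 3.08 across Ctrl PMBSF and 0.437 to 0.716 across embWPC ALBSF, and no marker was at 0 in a whole group. Summed, these markers had 35.8 to 132 CPM in Ctrl ALBSF, 40.8 to 141 in Ctrl PMBSF and 24.7 to 30.4 in embWPC ALBSF. Over the 12 libraries Gpc3 had an r of 0.778 with meningeal, 0.821 with GABAergic neuron and 0.769 with astrocyte and radial glia markers. The summed level of the GABAergic neuron markers was 6.41 to 64.8 CPM in Ctrl ALBSF, 12.7 to 50.2 in Ctrl PMBSF and 9.998 to 41.7 in embWPC ALBSF. In each group the library with the highest Gpc3 level (Ctrl ALBSF 1, Ctrl PMBSF 2 and embWPC ALBSF 4) was also the one with the highest GABAergic sum, and the part of these markers in the Gpc3 values was not tested.

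The control difference of Gpc3 rested on that 1 library. It was 0.66 ± 0.44 on the log2 scale (SE; edgeR adjusted p 0.629), -0.0027 without Ctrl PMBSF 2, and -0.39 with the meningeal level as a covariate. In the same control comparison 11 of the 12 meningeal markers were above 0, with a median of 0.772. Gpc5, the other gene of the subfamily, had 6.29 CPM in Ctrl PMBSF 2, its lowest value in that group. With the meningeal level as a covariate the Gpc5 difference was 1.59 on the log2 scale with an edgeR adjusted p of 0.00355, so it was as large as without it. Gpc3 and Gpc4 are neighbours on chromosome X, both on the minus strand, with 107.0 kb between them, and Gpc4 had 2.06 CPM in Ctrl PMBSF 2, within the range of its group.

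**Figure D3:**
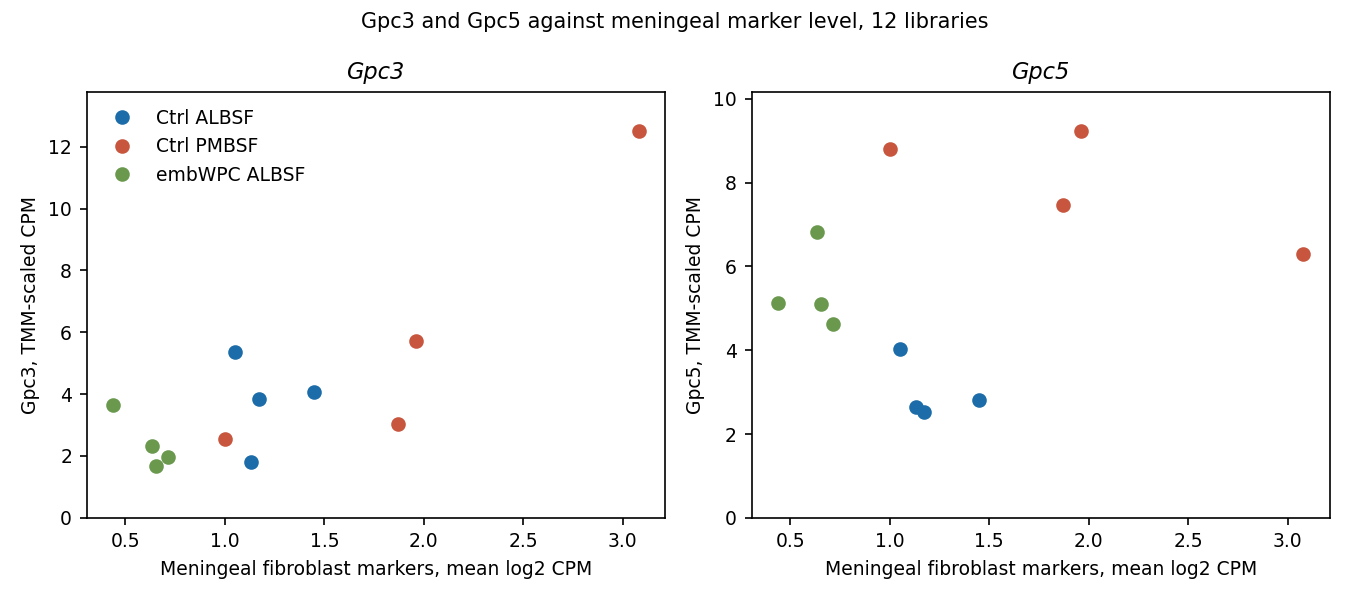
CPM of Gpc3 and Gpc5 (vertical axes) against the mean log2 CPM of 12 meningeal fibroblast markers (horizontal axis), with 1 point per library and colours by group. Ctrl PMBSF 2 is the point at the far right at 3.08, highest for Gpc3 at 12.5 CPM and lowest among the Ctrl PMBSF libraries for Gpc5 at 6.29 CPM.

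The second comparison addresses the effect of the condition within the upper lip territory, with embWPC ALBSF set against Ctrl ALBSF. No member was called by edgeR with the count filter and all 12 libraries, where 0.0629% of all genes were. DESeq2 called 1 member, against 1.02% of all genes, and limma voom called 1, against 0.429%. That member was Gpc5 in both. At an unadjusted p under 0.05 it was 2 of 10 (Gpc5 and Gpc6), against 9.22% of all genes.

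Gpc5 had 5.10, 4.62, 6.82 and 5.14 CPM in embWPC ALBSF, a mean of 5.42 ± 0.962 (SD, n = 4). All 4 libraries were above the highest Ctrl ALBSF library at 4.04 CPM. The log2 difference was 0.85 ± 0.18 (SE; 95% interval 0.46 to 1.24), with an edgeR adjusted p of 0.103. It was called in 4 of 21 alternatives, which were DESeq2 (adjusted p 0.00349), limma voom (0.0425), no count filter (0.011) and leaving out Ctrl ALBSF 1 (edgeR, 0.0454). Over the 21 the log2 difference ran from 0.70 to 1.03 and the adjusted p from 0.00349 to 0.354. Those 21 include fits that only leave out a Ctrl PMBSF library, and a block on numbers that do not pair these groups. Ctrl ALBSF 1 was the highest upper lip control, and without it the log2 difference was 1.03. Leaving out embWPC ALBSF 3, the highest library of the condition, gave 0.72 (edgeR adjusted p 0.224).

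Gpc6 had 4.19, 3.97, 4.37 and 4.27 CPM in embWPC ALBSF. All 4 were below the lowest control library of either territory, which were at 4.50 CPM in Ctrl ALBSF and 4.43 in Ctrl PMBSF. The means were 4.20 ± 0.168 in embWPC ALBSF and 5.17 ± 0.828 in Ctrl ALBSF (SD, n = 4 each). The gap was small, since the groups overlapped when libraries were scaled by their totals alone, and the edgeR adjusted p was 0.539 at a log2 difference of -0.30 ± 0.14 (SE). Libraries did not overlap for 2 of the 10 members, Gpc5 and Gpc6, against 5.74% of all genes.

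Sdc3 had 347.0, 460.6, 372.1 and 391.0 CPM in embWPC ALBSF, a mean of 392.7 ± 48.8 (SD, n = 4). This spread was wider than in either control group and reached above the highest Ctrl ALBSF library. Its log2 difference from Ctrl ALBSF was -0.10 ± 0.086 (SE; 95% interval -0.29 to 0.083) with an edgeR adjusted p of 0.746. Gpc1 had 113.9 to 135.4 CPM, overlapping the 109.7 to 124.2 of Ctrl ALBSF. Over the members the median log2 difference was -0.175, against -0.011 over all genes, with 3 above 0 and 7 below. The comparison shares its 4 control libraries with that of the territories, so the values are not independent of the ones above. Gpc3 had a log2 difference of -0.64 ± 0.46 (SE; edgeR adjusted p 0.699), which was -0.018 with the meningeal level as a covariate. The meningeal levels of these groups did not overlap, so that fit cannot separate the group from the meningeal level. In this comparison 11 of the 12 meningeal markers were below 0 (median -0.467), as were 9 of 9 GABAergic markers (-0.706) and 10 of 10 microglia and macrophage markers (-0.478). The part of the GABAergic and microglial lists in the Gpc3 difference was not tested.

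The third comparison set the upper lip territory of the condition against the control whisker pad territory. No member was called by edgeR, DESeq2 or limma voom, where edgeR called 0.00571%, DESeq2 0.423% and limma voom 0.00571% of all genes. At an unadjusted p under 0.05 it was 4 of 10 (Gpc1, Gpc3, Gpc5 and Sdc3), against 9.47% of all genes. Gpc5 had a log2 difference of -0.56 ± 0.17 (SE; 95% interval -0.93 to -0.18; edgeR adjusted p 0.364). Its mean of 5.42 CPM in embWPC ALBSF lay between the control means of 3.01 and 7.95, and 1 library, at 6.82 CPM, was within the Ctrl PMBSF range.

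Sdc3 had a log2 difference of 0.26 ± 0.086 (SE; 95% interval 0.075 to 0.44; edgeR adjusted p 0.391). Every embWPC ALBSF library was above every Ctrl PMBSF library, by 347.0 against 343.2 CPM at the closest, and the groups overlapped with library totals alone. Libraries did not overlap for 2 of 10 members, Gpc6 and Sdc3, against 4.73% of all genes. Gpc1 had a log2 difference of 0.20 ± 0.077 (SE; edgeR adjusted p 0.46), with 101.2 to 119.3 CPM in Ctrl PMBSF. Gpc3 had one of -1.30 ± 0.45 (SE; edgeR adjusted p 0.413), which was -0.64 without Ctrl PMBSF 2 and 0.37 with the meningeal level as a covariate. Here too the meningeal levels of the groups did not overlap, so the covariate cannot be separated from the group. GABAergic markers were 9 of 9 below 0 in this comparison (median -0.635) and meningeal markers 11 of 12 (-1.79). The median over the members was -0.026, against -0.0158 over all genes. Gpc5 and Sdc3 thus had embWPC ALBSF means between the control means, but so did Gpc2, Sdc1 and Sdc4. For Sdc3 the 95% interval against Ctrl ALBSF, -0.29 to 0.083, included 0. Neither Gpc5 nor Sdc3 was called against either control group by edgeR with the count filter and all 12 libraries.

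**Figure D4:**
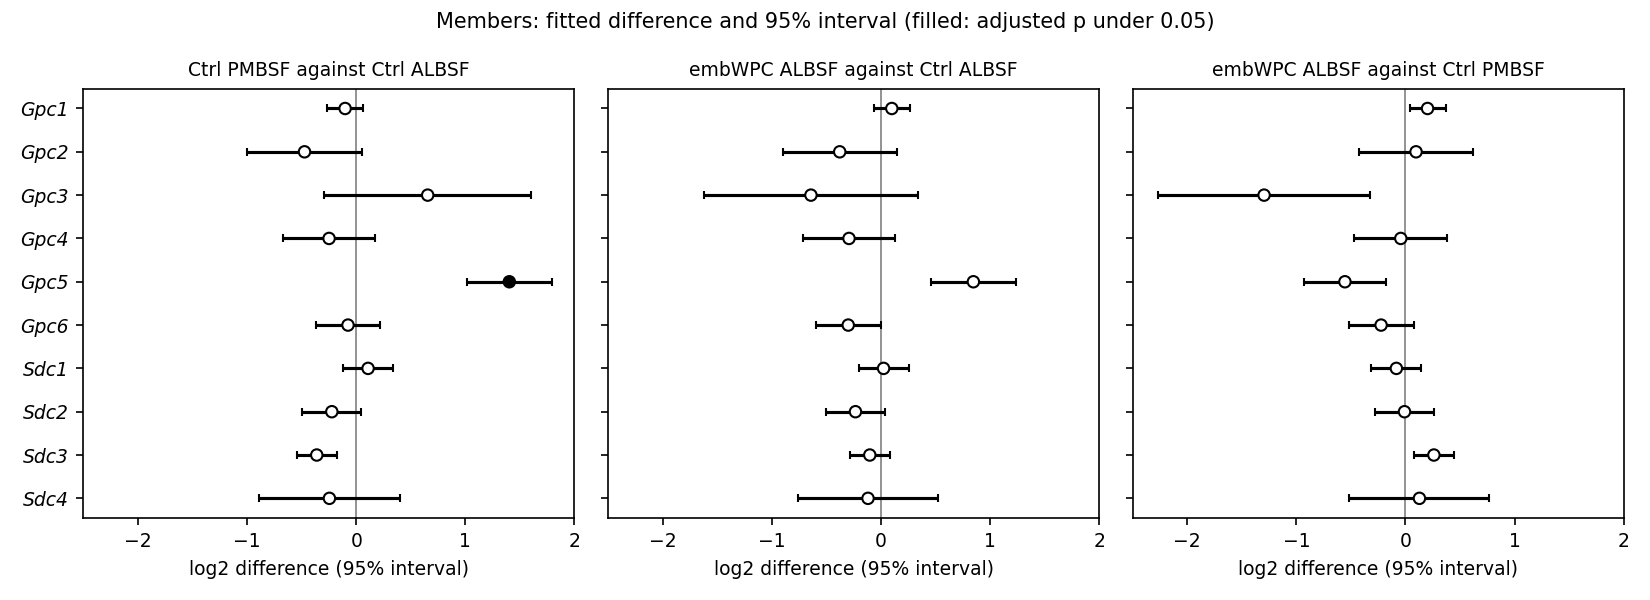
Fitted log2 difference of each member with its 95% interval (horizontal axis) in the 3 comparisons, 1 panel each, with filled points for an edgeR adjusted p under 0.05. With group as the only term, the 1 filled point is Gpc5 in Ctrl PMBSF against Ctrl ALBSF at 1.40.

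Genes whose pattern was most like that of Gpc5 were taken as the 5 of 12652 candidates with the highest Pearson correlation of log2 CPM over the 12 libraries. They were Rims2, an organiser of synaptic vesicle release (r = 0.968), Tmem255a (0.957), Egfem1 (0.955), the fibrillar collagen gene Col11a1 (0.954) and Hdc, which makes histamine (0.951). The correlations describe libraries of 3 groups that differ in Gpc5, and they carry no test. All 5 had their lowest mean in Ctrl ALBSF and their highest in Ctrl PMBSF, as Gpc5 did. That shared order largely follows from choosing them by their correlation with Gpc5 over these same libraries. Hdc had 4.23 CPM in Ctrl ALBSF, 13.3 in Ctrl PMBSF and 8.03 in embWPC ALBSF. Rims2, the most abundant of them, had 56.9, 83.3 and 70.3 CPM in the same order.

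The other genes of the pathway were read from 63 genes in 4 lists. They cover enzymes that build heparan sulfate chains (12), enzymes that modify them (20), other heparan sulfate proteoglycans (11) and partners of the core proteins (20). Of these, 60 were tested. Between the control territories edgeR called 1 of 60 higher and 0 lower, against 1.62% of all genes, and the median log2 difference was -0.0585. DESeq2 and limma voom each called 4 of 60, against 3.01% and 2.53% of all genes. With the library number as a block it called 8 of 60, against 5.04% of all genes, with 3 higher and 5 lower.

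Modifying enzymes held the call. Hs6st2, which adds sulfate at the 6-O position of glucosamine, had means of 12.9 ± 3.21 CPM in Ctrl ALBSF, 44.2 ± 7.12 in Ctrl PMBSF and 27.7 ± 6.42 in embWPC ALBSF (SD, n = 4 each). It rose by a log2 difference of 1.77 ± 0.19 (SE) in Ctrl PMBSF with an edgeR adjusted p of 0.000365. In embWPC ALBSF its difference from Ctrl ALBSF was 1.09 ± 0.19 (SE; edgeR adjusted p 0.0598). Like Gpc5, Hs6st2 did not overlap between Ctrl ALBSF and either other group. Hs3st1, a 3-O-sulfotransferase, had 115.8 ± 12.3 CPM in Ctrl ALBSF and 184.1 ± 21.7 in Ctrl PMBSF, with an edgeR adjusted p of 0.0545, or 0.00221 with the block. Ndst3, an N-deacetylase and N-sulfotransferase, had 4.25 ± 1.02 and 7.71 ± 1.68 CPM, with an edgeR adjusted p of 0.0989, or 0.0246 with the block. The median of the 17 modifying enzymes tested was 0.0341, and 5 of them had an unadjusted p under 0.05, against 11.8% of all genes.

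Chain assembly had 0 of 12 genes called by edgeR between the territories and 1 at an unadjusted p under 0.05, against 1.62% and 11.8% of all genes. That was Extl1, of the exostosin family of chain-building enzymes, with 0.947 ± 0.199 CPM in Ctrl ALBSF and 1.56 ± 0.215 in Ctrl PMBSF (SD, n = 4 each; edgeR adjusted p 0.186). Other proteoglycans had 0 of 11 called by edgeR and 5 at an unadjusted p under 0.05, against the same shares of all genes, and a median of -0.254. Spock2, a testican of the extracellular matrix, had a log2 difference of -0.40 ± 0.10 (SE; edgeR adjusted p 0.0677, or 0.00587 with the block). Spock3, of the same family, had one of -0.35 ± 0.10 (SE; edgeR adjusted p 0.118, or 0.00513 with the block). The block also called Sulf1 (-1.01), Nrxn2 (-0.27) and Tiam1 (-0.47), which are named here after their values were seen.

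Partners of the core proteins, which include Slits, receptor phosphatases and midkine, had 0 of 20 called by edgeR and 3 at an unadjusted p under 0.05, near the 11.8% of all genes at that p. Ptprs, a receptor phosphatase that binds heparan sulfate and Gpc4, had 240.6 ± 12.8 CPM in Ctrl ALBSF and 206.2 ± 20.3 in Ctrl PMBSF (SD, n = 4 each; edgeR adjusted p 0.29). In this list 17 of 20 were below 0, with a median of -0.133, where 8584 of all 17501 genes were below 0.

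In embWPC ALBSF against Ctrl ALBSF edgeR called 0 of 60 list genes, with 10 at an unadjusted p under 0.05, against 0.0629% and 9.22% of all genes. DESeq2 and limma voom called 1 each, which was Hs6st2, against 1.02% and 0.429% of all genes. Mdk, which encodes the growth factor midkine, a ligand of these chains, had 27.2 ± 6.80 CPM against 36.2 ± 3.17 (SD, n = 4 each; edgeR adjusted p 0.368). Against Ctrl PMBSF edgeR, DESeq2 and limma voom called 0 of 60, with 12 at an unadjusted p under 0.05 by edgeR, against 9.47% of all genes. Extl3, another chain-building enzyme, had 42.4 ± 3.37 CPM in embWPC ALBSF and 51.3 ± 6.33 in Ctrl PMBSF (SD, n = 4 each; edgeR adjusted p 0.373).

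**Figure D5:**
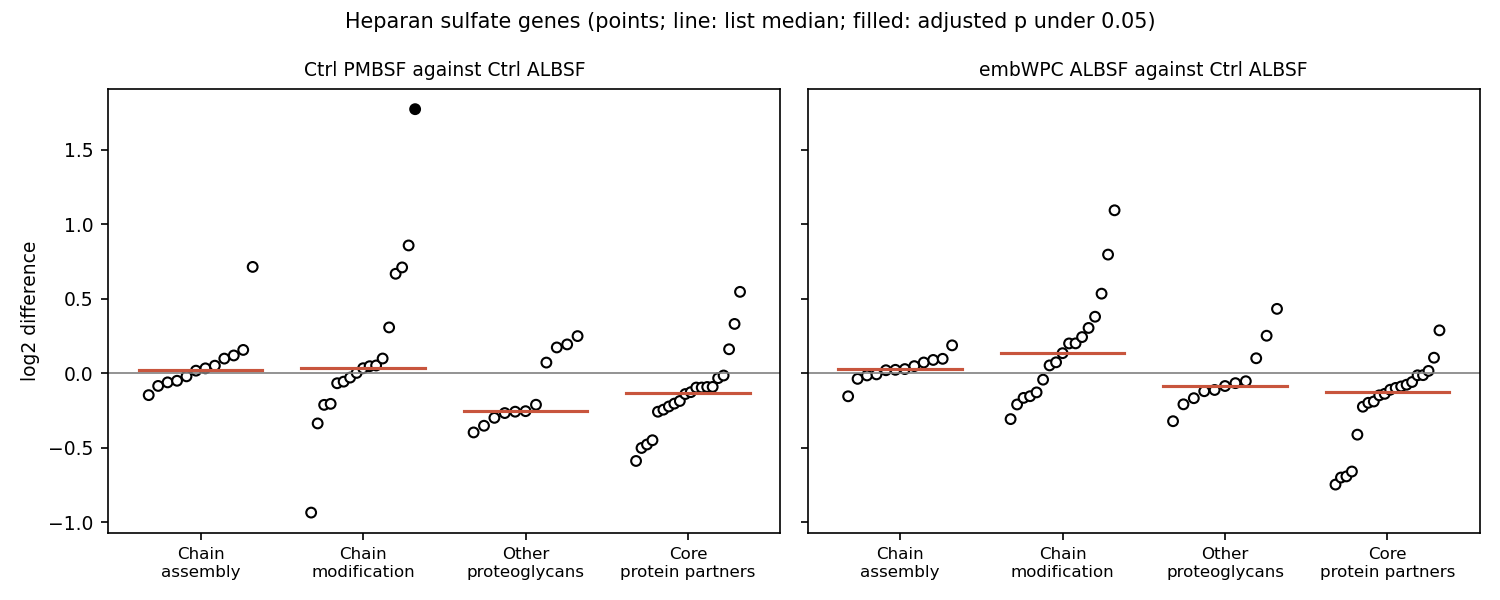
Fitted log2 differences (points, vertical axis) of the 60 tested genes in the 4 heparan sulfate lists, with the median of each list as a line, in the 2 comparisons with Ctrl ALBSF. With group as the only term, the 1 filled point, past an edgeR adjusted p of 0.05, is Hs6st2. It lies at 1.77 in Ctrl PMBSF against Ctrl ALBSF.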

How the data were processed

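Poly-A RNA of 12 libraries in 3 groups of 4 was analysed from raw counts per Ensembl gene, which the authors deposited per library. STAR 2.7.9a aligned the reads to GRCm39, and featureCounts (Subread 2.0.1) assigned them to genes of Ensembl release 104, per the submitters' processing notes and the design text. The processing notes list both GRCm39 and mm10, and GRCm39 is used here because the design text states it. The settings for strand, multiple alignments and read pairs are not given in the sources used here, so overlapping genes can share counts. Symbols, positions and exon lengths came from GENCODE mouse release M39, which held 54749 of the 55359 identifiers. Any 2 libraries differed by a chi-square of at least 12.6 per degree of freedom, so none was a duplicate.

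Counts were fitted in R 4.3.3 with edgeR 4.0.16 (quasi-likelihood, group as the only term, all 12 libraries, filterByExpr, TMM), which tested 17501 genes. Benjamini-Hochberg adjustment ran across those genes, with calls at an adjusted p under 0.05. The prior count for log2 CPM was 2. The script was tested on simulated data. DESeq2 1.42.0, limma 3.58.1 voom with quality weights, other scalings and filters, a replicate block, a meningeal covariate and leaving out each library were alternatives. Same-numbered control libraries deviated together (r of 0.254 to 0.643 over 9427 genes), so the numbers pair the control groups. They do not pair embWPC ALBSF with either (r of -0.248 to 0.113), so a block by number has no basis in its comparisons.

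All members were named. Of each heparan sulfate list the rule named the called genes, or up to 3 with the smallest p, and for Gpc5 the 5 most alike genes with a mean of at least 1 CPM and a symbol that is no Gm number, Rik name or pseudogene. Members and lists were chosen with earlier results of these data known. Results of 1 list gene that the rule takes, and of 1 sequence window, are not reported here.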

Additional observations from a re-analysis of the deposited data

Results flagged for a closer look

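Each member was examined in each group for a library far from the other 3, which made 30 groups of 4 libraries, and 2 stood out by Dixon's test at the 95% level. Chance alone flags about 1 in 20 such groups. Both concerned Gpc4, a low glypican. In Ctrl PMBSF 1 Gpc4 had 1.38 CPM, while the other 3 libraries of the group had 2.04 to 2.10. In embWPC ALBSF 4 it had 2.44 CPM, while the other 3 had 1.61 to 1.65. Neither comparison of Gpc4 was called with or without these libraries.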

How the results depend on the processing

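Between the control territories the count of members called was 2 under DESeq2, voom, a mean of at least 1 CPM, the 2 groups alone and the replicate block. It was 1 to 2 when each library was left out, and 2 without embWPC ALBSF 1 or 2. DESeq2 called 3.01%, voom 2.53% and the block 5.04% of all genes. All genes called were 138 higher and 131 lower of 14042 at a mean of at least 1 CPM. With the 2 groups alone they were 111 and 119 of 17000. With a library left out, 62 to 140 were higher and 65 to 142 lower. In embWPC ALBSF against Ctrl ALBSF the count of members was 1 under DESeq2, voom and no count filter, and 0 to 1 with a library left out (1 without Ctrl ALBSF 1). DESeq2 called 1.02% and voom 0.429% of all genes there. With no filter 43 of all 34533 genes were higher and 78 lower. Without Ctrl ALBSF 1 these were 7 and 15 of 17905. Against Ctrl PMBSF the count of members stayed 0 in the 21 alternatives. The replicate block changed no other member's call: Gpc5 had 1.41 (edgeR adjusted p 0.000268) between the territories and 0.87 (0.29) in embWPC ALBSF against Ctrl ALBSF.

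Heparan sulfate genes called between the territories numbered 4 under DESeq2 and voom, 5 with no count filter, 3 with the 2 groups alone, 3 with library totals alone, 8 with the block and 1 to 3 with a library left out. With no count filter 201 of all 34533 genes were called higher there and 197 lower. In embWPC ALBSF against Ctrl ALBSF the heparan sulfate genes called numbered 1 under DESeq2, voom and library totals, 3 with no filter and 0 to 1 with a library left out. Library totals called 3 of all 17501 genes higher and 4 lower, and no filter 43 and 78 of 34533. Against Ctrl PMBSF the heparan sulfate genes called numbered 2 with no filter, where 26 of all 34533 genes were higher and 46 lower. Over all genes, DESeq2 called 527, voom 443 and the block 857 between the territories, against 284 by edgeR. Library totals alone, an alternative chosen after seeing the data, called 150 higher and 69 lower, against 142 and 142, and the median of all genes was then 0.103 against 0.00431. In embWPC ALBSF against Ctrl ALBSF the counts were 11 by edgeR, 178 by DESeq2, 75 by voom and 1 with the block.

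Directions turned only for members that were not called. Between the territories, Gpc3 gave -0.39 with the meningeal covariate and -0.0027 to 0.90 with a library left out, and Gpc6 gave 0.035 with library totals and -0.17 to 0.039 with a library left out. In embWPC ALBSF against Ctrl ALBSF, Sdc1 gave -0.046 with the covariate and -0.054 to 0.13 with a library left out, and Sdc4 gave -0.29 to 0.064. In embWPC ALBSF against Ctrl PMBSF the covariate gave -0.0065 for Gpc2, 0.37 for Gpc3 and 0.23 for Gpc4, and voom gave 0.050 for Sdc2. With a library left out the ranges there were -0.032 to 0.22 for Gpc2, -0.21 to 0.023 for Gpc4, -0.16 to 0.019 for Sdc1, -0.083 to 0.12 for Sdc2 and -0.069 to 0.33 for Sdc4. The cause was not tested. Meningeal levels of embWPC ALBSF overlapped those of neither control group, so its covariate values cannot separate the group from the meningeal level. Per kb of the longest transcript, levels were 50.4 CPM for Sdc3, 14.5 for Gpc1, 11.7 for Sdc1, 4.46 for Sdc2, 1.91 for Gpc5 and 0.727 for Gpc6, which follows from the shorter length. Sdc4 rests on 21 to 50 counts per library, and how much of its spread is counting error was not tested.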
